A study of Mus musculus with 24 samples.

Results

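The natriuretic peptide system of the mouse heart was followed through 8 genes in 6 groups of hearts. They were the peptide genes Nppa, Nppb and Nppc, the receptor genes Npr1, Npr2 and Npr3, and the protease genes Corin and Furin. The members were taken by gene symbol from a table of Salmon-estimated read counts with 43432 Ensembl identifiers, and all 8 were found in it. Of these, 7 passed the filter on low counts in every comparison, while Nppc did not.

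Nppa encodes atrial natriuretic peptide and Nppb encodes B-type natriuretic peptide, hormones that cardiomyocytes make as precursors and release when the heart wall is stretched. Corin, a membrane serine protease of cardiomyocytes, cuts the atrial precursor into the active hormone, and furin, a convertase of the secretory route, can cut the B-type precursor. The hormones act through the guanylyl cyclase receptor Npr1, which makes cyclic GMP and so promotes salt excretion and relaxes vessels. Nppc encodes C-type natriuretic peptide, the ligand of the related cyclase Npr2, and Npr3 has no cyclase and clears all these peptides. In rodents Nppa is active in fetal atria and ventricles, is largely restricted to the atria in the adult, and returns in the ventricle under load. Both peptide genes serve as markers of cardiac hypertrophy and failure.

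The hearts came from C57BL/6 mice and were sequenced as total RNA after depletion of ribosomal RNA, with 4 libraries in each of the 6 groups. Mice given wheel running, which the design text puts at 8 weeks, were set against sedentary mice. Mice at 2 weeks after transverse aortic constriction (TAC), a banding of the aorta that raises the pressure against which the left ventricle pumps, were set against sham-operated mice. Mice at 8 weeks after TAC were set against a separate sham group. The labels mark the earlier TAC and sham pair as left ventricular hypertrophy and the later pair as heart failure, and they give neither sex nor age. No allele or drug was named for any group, and the tissue was given as heart with no chamber. The labels do not say whether the libraries of a group came from separate mice, so the p-values below measure only the spread between these libraries, which may in part be technical.

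Library totals ran from 16802939 to 39512101 counts, of which 50.7% to 73.6% fell on mitochondrially encoded genes. That share was 50.7% to 58.4% in the TAC hearts at 2 weeks and 59.8% to 64.5% in their shams. It was 52.7% to 57.6% in the TAC hearts at 8 weeks and 61.3% to 67.0% in their shams. Leaving these genes out changed no call on a member. Levels below are CPM, read counts scaled to library size, with trimmed mean of M-values (TMM) factors over all 24 libraries. A gene is called when the edgeR quasi-likelihood test, adjusted by Benjamini-Hochberg over all genes tested, gives p below 0.05. Scaling by library totals alone put the median gene at a log2 fold change of 0.41 for TAC at 2 weeks and 0.33 for TAC at 8 weeks, so each change below is relative to the bulk of genes. Counting covers bulk heart tissue of unnamed chambers, in which fewer cells of a type and less RNA per cell cannot be told apart.

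The promoters of the 3 members that moved furthest after TAC are shown here. All 8 members matched the RefSeq promoter table. Each run gives the 250 bases before the RefSeq start in GRCm38.p6, read 5′ to 3′ on the gene's strand. Capitals mark matches to 5 motifs: GATAA, the core bound by GATA factors, CATTCC, the M-CAT element bound by TEAD factors, TNAAGTG, bound by Nkx2-5, TATAAA, and the CArG box bound by serum response factor. TATAAA was sought on the gene's strand and the others on both strands, and no 2 matches in these windows overlapped. The Nppb window is chr4:147985650-147985899 on the plus strand, the Nppa window is chr4:148000472-148000721 on the plus strand and the Corin window is chr5:72504541-72504790 on the minus strand.
Nppb: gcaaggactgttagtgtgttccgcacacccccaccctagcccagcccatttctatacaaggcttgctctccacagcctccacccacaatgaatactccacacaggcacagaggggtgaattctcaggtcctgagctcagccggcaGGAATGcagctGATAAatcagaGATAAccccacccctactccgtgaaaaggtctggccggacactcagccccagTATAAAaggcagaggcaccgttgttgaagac
Nppa: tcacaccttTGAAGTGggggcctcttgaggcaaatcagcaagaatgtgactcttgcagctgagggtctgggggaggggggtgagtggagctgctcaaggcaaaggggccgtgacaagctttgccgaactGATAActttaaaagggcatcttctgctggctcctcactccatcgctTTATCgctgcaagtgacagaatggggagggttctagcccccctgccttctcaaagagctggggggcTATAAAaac
Corin: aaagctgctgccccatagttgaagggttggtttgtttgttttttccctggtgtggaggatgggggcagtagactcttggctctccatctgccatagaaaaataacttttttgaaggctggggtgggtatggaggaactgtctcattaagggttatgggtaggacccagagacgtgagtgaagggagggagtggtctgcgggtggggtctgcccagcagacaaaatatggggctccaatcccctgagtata
Both peptide promoters held GATAA matches. In Nppb they lay 94 to 90 and 83 to 79 bases before the start, and in Nppa they lay 121 to 117 bases before it and, on the other strand, 75 to 71. GATAA occurs in 22.6% of all 32851 promoter windows of the same length. The Nppb window also held an M-CAT match on the other strand, 105 to 100 bases before the start, as 12.6% of windows do. The Nppa window held TGAAGTG 241 to 235 bases before the start, a match to TNAAGTG, which 10.1% of windows hold. TATAAA stood 31 to 26 bases before the start in Nppb and 9 to 4 in Nppa, and 7.59% of windows hold it. Among members whose windows are not printed, Nppc held TATAAA 29 to 24 bases before the start. Furin, which has 2 windows, held TATAAA 23 to 18 bases before a start and TCAAGTG, a match to TNAAGTG, 206 to 200 before. The Corin window had no match to any of the 5 motifs, which says only that these letters are not in it. None of the 8 members matched the CArG box, sought as CCWWWWWWGG with W for A or T and found in 1.47% of windows. Boxes that differ from these letters were not sought.

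Nppa was the member with the largest fold change. It stood at 759, 662, 407 and 572 CPM in the TAC hearts at 2 weeks, against 20.8, 26.6, 44.0 and 31.7 CPM in their shams. The lowest TAC heart was far above the highest sham. Its level was 19.5-fold higher with TAC, a log2 fold change of 4.29 (SE 0.267, edgeR adjusted p = 2.17e-06, higher in 4 of 4 TAC hearts than in any sham). By log2 fold change it ranked 9 from the highest of 14224 genes tested. At 8 weeks Nppa stood at 366, 310, 303 and 416 CPM in the TAC hearts, against 18.4, 18.9, 26.9 and 20.1 CPM in their shams. The groups were again fully apart, and the log2 fold change was 4.05 (SE 0.147, edgeR adjusted p = 5.67e-09), or 16.5-fold. Every leave-one-out value of the Nppa change kept its call. An annotated antisense gene, Gm13054, shares 532 of the 865 exon bases of Nppa. The strand setting of the counting was not given in the sources used here, so reads within the shared bases cannot be told apart. The reads assigned to Gm13054 averaged 5.79 CPM in the TAC hearts at 2 weeks and 0.368 CPM in their shams, and the share of antisense reads in the Nppa counts was not tested.

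Nppb also rose after TAC at 2 weeks. It stood at 228, 224, 194 and 289 CPM in the TAC hearts, against 30.1, 39.1, 24.9 and 48.1 CPM in their shams. The groups were fully apart, with a 6.60-fold higher level (log2 fold change 2.72, SE 0.202, edgeR adjusted p = 3.98e-06). At 8 weeks Nppb stood at 294, 273, 443 and 400 CPM in the TAC hearts, against 179, 26.9, 71.9 and 30.8 CPM in their shams. All TAC hearts were above all shams, but sham replicate 1 was far above the other shams. The log2 fold change of 2.19 (SE 0.672, 95% interval 0.56 to 3.82) missed the threshold (edgeR adjusted p = 0.0534). Without sham replicate 1 it was 3.02 (edgeR adjusted p = 0.00455), and with all libraries it was called by DESeq2 (adjusted p = 0.00739), by a fit over 24 libraries (edgeR adjusted p = 0.00244) and under library totals (edgeR adjusted p = 0.0304). The other 4 settings did not call it (edgeR adjusted p up to 0.0853). Nor did leaving out any other library (log2 fold change down to 1.91, edgeR adjusted p up to 0.123). Sham replicate 1 had the lowest Nppa level of its group, 18.4 CPM. It had the highest levels among the 4 shams of Acta1, the skeletal alpha-actin gene, with 67.1 CPM, and of Ankrd1, which encodes a stretch-responsive sarcomere protein, with 251 CPM. It also held 93 counts of Myh4 and 11 of Myh1, fast myosin genes of skeletal muscle that had 0 counts in the other 3 shams. Its level of Myh7, the slow myosin gene that rises under load, was the lowest of the 4 shams, 45.6 CPM against 66.8 to 83.5 CPM in the others. Myh1, Myh4 and Myh7 were named after their values were seen, and the part of these differences in the Nppb level was not tested. The TAC hearts of that time had at least 1057 CPM of Acta1 and 1060.0 CPM of Ankrd1.

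Nppc was at the edge of detection. It had 13 counts over all 24 libraries, at most 4 in any library, and 16 libraries had 0. In those 16 a level of up to 3 counts, or 0.0759 to 0.179 CPM by library, would have been allowed by counting error, so no comparison of Nppc was made.

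Per kilobase of annotated exon, the order of the peptide genes differed between the TAC times. Nppa averaged 694 and Nppb 299 CPM per kilobase in the TAC hearts at 2 weeks, whereas at 8 weeks Nppa averaged 403 and Nppb 451. In the 2-week shams the values were 35.6 for Nppa and 45.5 for Nppb, and in the 8-week shams they were 24.4 for Nppa and 98.6 for Nppb. The ratio of Nppa to Nppb levels in CPM was 3.33, 2.96, 2.10 and 1.98 in the TAC hearts at 2 weeks, against 0.691, 0.681, 1.76 and 0.658 in their shams. It was 0.684 to 1.25 in the TAC hearts at 8 weeks, against 0.103, 0.702, 0.375 and 0.652 in their shams. The 2-week TAC ratios thus all lay above those of the other groups, while at 8 weeks TAC and sham overlapped. These ratios are a description and were not tested. The difference between the TAC effects at 8 and 2 weeks, which was tested, was -0.23 for Nppa (95% interval -0.88 to 0.41) and -0.52 for Nppb (-2.01 to 0.97) on the log2 scale, and neither was called. Without 8-week sham replicate 1 the Nppb difference turned to 0.31.

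**Figure D1:**
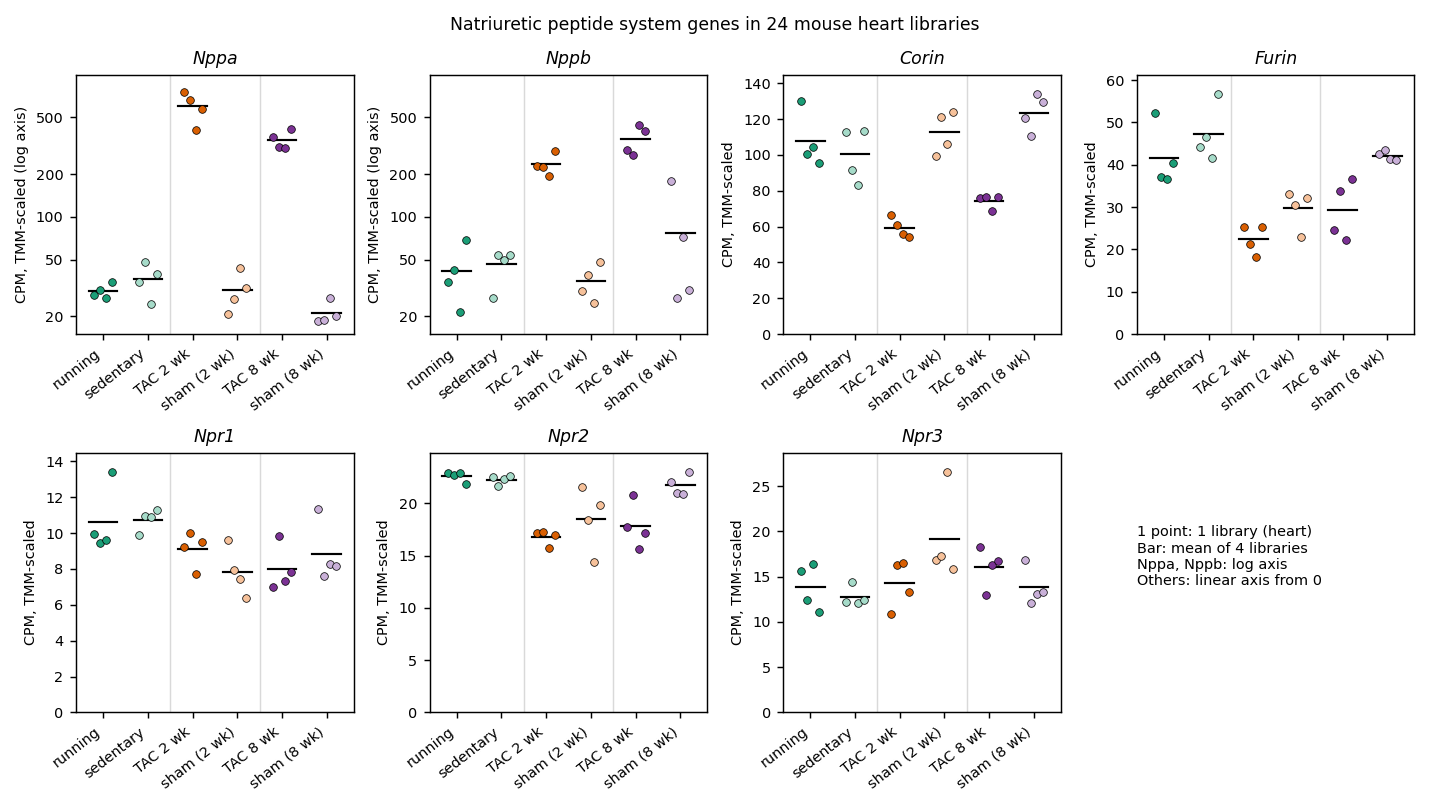
Level of each of the 7 measured members in CPM (vertical axes, log scale for Nppa and Nppb, linear from 0 for the rest) in the 6 groups, each TAC or running group left of its control. Points are libraries and the bar is the mean of 4. Nppa spans 303 to 759 CPM in the 8 TAC hearts and stays at or below 48.0 CPM in the other 16, while the 8-week sham points of Nppb spread from 26.9 to 179 CPM.

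**Figure D2:**
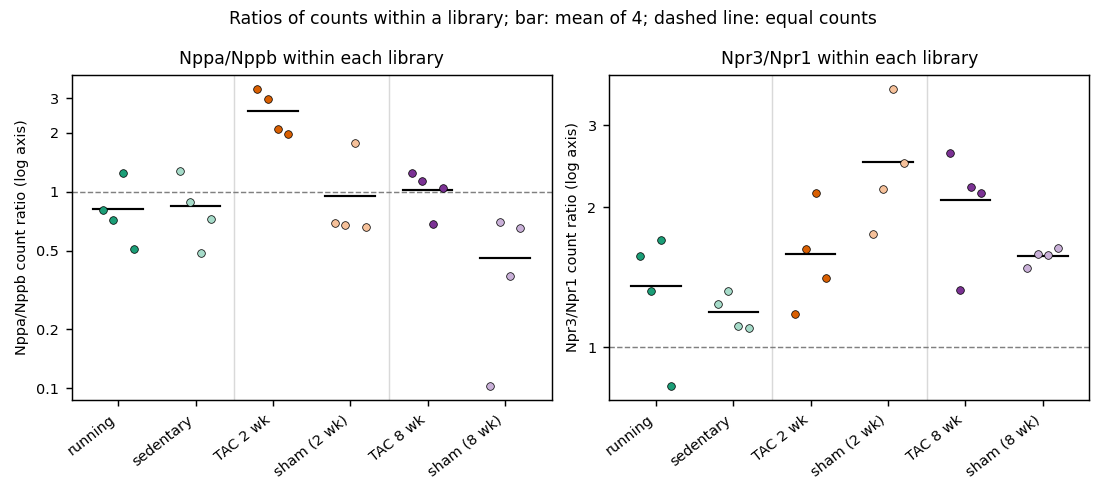
Ratio of Nppa to Nppb and of Npr3 to Npr1 CPM in each library (log axes), by group, with the bar at the mean of 4 libraries. The Nppa to Nppb ratio is 1.98 to 3.33 in TAC hearts at 2 weeks, above all other libraries, and 0.684 to 1.25 in TAC hearts at 8 weeks.

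Corin, the protease that activates the atrial peptide, fell after TAC. It stood at 66.5, 61.1, 56.1 and 53.9 CPM in the TAC hearts at 2 weeks, against 99.3, 121, 106 and 124 CPM in their shams. The groups did not overlap, and the level was 1.89-fold lower (log2 fold change -0.92, SE 0.105, edgeR adjusted p = 3.02e-05). At 8 weeks Corin stood at 75.7, 76.3, 68.5 and 76.6 CPM in the TAC hearts, against 121, 110.3, 134 and 129.6 CPM in their shams. The groups were again apart, and the level was 1.66-fold lower (log2 fold change -0.73, SE 0.0846, edgeR adjusted p = 3.34e-05). Corin was called under every setting tried in both comparisons, but library totals brought the log2 fold change to -0.49 at 2 weeks and -0.40 at 8 weeks.

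Furin was also called lower, with less margin. It stood at 25.2, 21.2, 18.2 and 25.2 CPM in the TAC hearts at 2 weeks, against 33.2, 30.6, 23.0 and 32.2 CPM in their shams. Here 2 TAC hearts were above the lowest sham, and the log2 fold change was -0.40 (SE 0.128, edgeR adjusted p = 0.0291), which turned to 0.036 under library totals. The call was lost without TAC replicate 2 or 3 or sham replicate 1, 2 or 4, with edgeR adjusted p of 0.0648 to 0.0769. At 8 weeks Furin stood at 24.5, 33.8, 22.2 and 36.7 CPM in the TAC hearts, against 42.5, 43.6, 41.4 and 41.1 CPM in their shams. The groups did not overlap, and the log2 fold change of -0.52 (SE 0.137, edgeR adjusted p = 0.0128) was -0.19 and not called under library totals. The ratio of Corin to Furin CPM was 2.14 to 3.07 in the TAC hearts at 2 weeks and 2.99 to 4.61 in their shams, and it was 2.09 to 3.09 at 8 weeks with TAC and 2.53 to 3.24 in those shams.

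In the main fits, with TMM scaling, the largest log2 difference of a receptor gene after TAC was -0.42, for Npr3 at 2 weeks. Npr1, the cyclase receptor of both cardiac peptides, stood at 9.22, 10.0, 7.70 and 9.49 CPM in the TAC hearts at 2 weeks, against 9.63, 7.92, 7.42 and 6.36 CPM in their shams. The groups overlapped, and the log2 difference was 0.23 (95% interval -0.05 to 0.50, edgeR adjusted p = 0.202), although under library totals it was 0.65 and called. At 8 weeks it stood at 7.00, 9.81, 7.34 and 7.83 CPM in the TAC hearts, against 11.4, 7.63, 8.29 and 8.14 CPM in their shams. The groups overlapped, and the difference of -0.15 on the log2 scale (95% interval -0.45 to 0.16) was not called, and it turned to 0.18 under library totals.

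Npr2, the receptor of the C-type peptide, averaged 16.8 ± 0.741 CPM in the TAC hearts at 2 weeks and 18.5 ± 3.03 CPM in their shams (SD, n = 4 each). The groups overlapped and the log2 difference of -0.14 (95% interval -0.37 to 0.10) was not called. At 8 weeks Npr2 stood at 17.7, 20.8, 15.7 and 17.2 CPM in the TAC hearts, against 22.0, 21.0, 20.9 and 23.0 CPM in their shams. The groups lay close without overlapping, and Npr2 was called lower (log2 fold change -0.28, SE 0.0952, edgeR adjusted p = 0.0376), a direction that turned to 0.051 under library totals. Leaving out any 1 library except TAC replicate 2 ended the call, with edgeR adjusted p of 0.0502 to 0.0955, and so did testing with no filter on low counts (edgeR adjusted p = 0.0724).

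Npr3, the clearance receptor, which is also an endocardial marker in the mouse heart, stood at 10.9, 16.3, 16.5 and 13.3 CPM in the TAC hearts at 2 weeks, against 16.9, 17.3, 26.6 and 15.8 CPM in their shams. The groups overlapped, and sham replicate 3 was high. The log2 difference of -0.42 (SE 0.183) was not called (edgeR adjusted p = 0.101), but a fit over all 24 libraries called it (-0.43, edgeR adjusted p = 0.0387). Under library totals the 2-week difference was -0.032 and not called (edgeR adjusted p = 0.875). At 8 weeks Npr3 averaged 16.1 ± 2.21 CPM in the TAC hearts and 13.8 ± 2.06 CPM in their shams (SD, n = 4 each), with a log2 difference of 0.22 that was not called (edgeR adjusted p = 0.194) and was 0.55 and called under library totals. The 8-week effect minus the 2-week effect was 0.65 for Npr3, with an unadjusted edgeR p of 0.0156 and an adjusted p of 0.162. The ratio of Npr3 to Npr1 CPM was 1.177, 1.63, 2.14 and 1.41 in the TAC hearts at 2 weeks, against 1.75, 2.18, 3.58 and 2.49 in their shams. It was 2.61, 1.33, 2.21 and 2.14 in the TAC hearts at 8 weeks, against 1.48, 1.58, 1.58 and 1.63 in their shams. TAC and sham ratios overlapped at both times. Per kilobase of exon the receptors stayed low in all groups: group means ran from 1.64 to 2.25 CPM per kilobase for Npr1, 3.60 to 4.84 for Npr2 and 1.36 to 2.04 for Npr3, whereas Corin ran from 11.0 to 22.9 and Furin from 2.45 to 5.15.

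Over the 7 members tested, edgeR called 2 higher and 2 lower after TAC at 2 weeks, 4 of 7 in all. Of all genes tested 33.2% were called at 2 weeks, 17.1% higher and 16.1% lower. At 8 weeks edgeR called 1 member higher and 3 lower, where 29.6% of genes were called, 14.9% higher and 14.7% lower. Under library totals the members split into 3 higher and 1 lower at each time. All calls then numbered 6995 higher and 614 lower at 2 weeks, in place of 2428 and 2289, and 6075 higher and 568 lower at 8 weeks, in place of 2032 and 2000. Nppa, Nppb and Corin did not overlap between the groups at 2 weeks, 3 of 7 members where 32.8% of all genes tested did so. At 8 weeks Nppa, Nppb, Corin, Furin and Npr2 did not overlap, 5 of 7 where the background was 29.5%, and with library totals these counts were 2 and 3. The difference between the TAC effects was called for 0 of 7 members by edgeR, 1 at an unadjusted p below 0.05 and 0 by DESeq2, where 1.36% of genes were called, 0.933% higher and 0.422% lower.

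**Figure D3:**
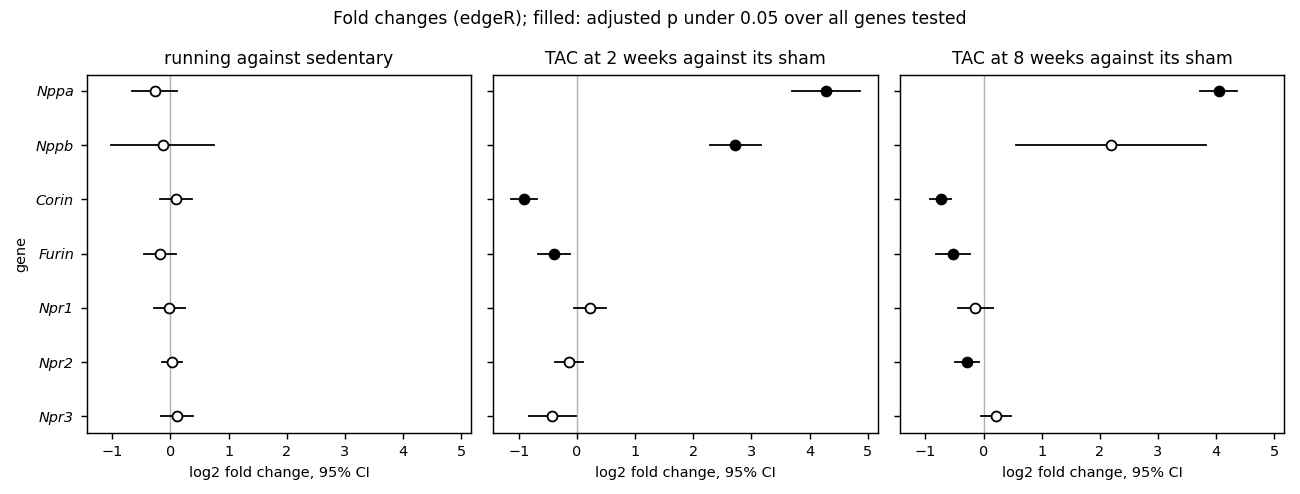
Log2 fold change of each member with its 95% interval (horizontal axis) for running against sedentary, TAC against sham at 2 weeks and TAC against sham at 8 weeks. Filled points have an adjusted p below 0.05. Nppa lies at 4.29 and 4.05 in the TAC panels, Corin at -0.92 and -0.73, and all running points lie between -0.27 and 0.12 with no filled point.

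For no member did running and sedentary hearts differ by more than the spread between libraries. Nppa stood at 28.3, 30.6, 26.8 and 35.1 CPM in running hearts, against 34.6, 48.0, 24.3 and 39.3 CPM in sedentary hearts. Nppb stood at 35.0, 42.6, 21.5 and 68.6 CPM in running hearts, against 27.1, 54.3, 49.9 and 53.9 CPM in sedentary hearts. The groups overlapped for both, with log2 differences of -0.27 for Nppa (95% interval -0.66 to 0.11) and -0.14 for Nppb (-1.03 to 0.76). The intervals of Npr1 (-0.29 to 0.25), Npr2 (-0.15 to 0.19), Npr3 (-0.16 to 0.39), Corin (-0.18 to 0.37) and Furin (-0.46 to 0.10) also held 0. No member was called by edgeR or DESeq2, and 0 of 7 passed an unadjusted p below 0.05. The ranges of the groups overlapped for 7 of 7 members, where 2.94% of genes had no overlap. Over all genes edgeR called 0% of 13824, while 665 had an unadjusted p below 0.05 and DESeq2 called 9.

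The TAC effect at 2 weeks exceeded the running effect by 4.56 on the log2 scale for Nppa (edgeR adjusted p = 4.19e-07) and 2.86 for Nppb (0.000783), and it was lower by a log2 difference of -1.02 for Corin (0.000342). These were 3 of 7 members, where 19.1% of genes were called, 9.5% higher and 9.56% lower. The TAC effect at 8 weeks differed from the running effect by 4.33 for Nppa (edgeR adjusted p = 2.75e-08) and -0.83 for Corin (0.00192), 2 of 7 members where 11.1% of genes were called, 5.74% higher and 5.35% lower. Both Corin differences lost their call under library totals, while the 2-week difference of Npr1 gained one (0.77, edgeR adjusted p = 0.00939). For Nppb the 8-week difference of 2.34 was not called (edgeR adjusted p = 0.0767). With all libraries it was called by DESeq2 (adjusted p = 0.0305), by a fit over 24 libraries (edgeR adjusted p = 0.0291) and under library totals (edgeR adjusted p = 0.0303). Without 8-week sham replicate 1 it was 3.17 (edgeR adjusted p = 0.00603). The other 4 settings did not call this Nppb difference (edgeR adjusted p up to 0.127), nor did leaving out any other library (up to 0.135). Both sets of differences use the same running and sedentary libraries.

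In order of mean level, few neighbouring groups were free of overlap. Nppa ran TAC at 2 weeks, TAC at 8 weeks, sedentary, sham at 2 weeks, running and sham at 8 weeks, and the only step without overlap was that between TAC at 8 weeks and sedentary. Nppb ran TAC at 8 weeks, TAC at 2 weeks and then sham at 8 weeks, and the only such step was between TAC at 2 weeks and sham at 8 weeks. Corin was apart at the steps from sedentary down to TAC at 8 weeks and from there to TAC at 2 weeks. Furin was apart only between running and sham at 2 weeks, and Npr1, Npr2 and Npr3 had no step without overlap.

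Nppa and Nppb lie side by side on chromosome 4. For 7 of the annotated genes around them, besides the antisense gene Gm13054, log2 fold changes after TAC lay between -0.78 and 0.28. Clcn6, the chloride transporter gene next to Nppa, had log2 fold changes of 0.13 at 2 weeks and 0.02 at 8 weeks, and Plod1, a collagen hydroxylase gene, had 0.16 and 0.21, none of them called, though library totals called Clcn6 at 2 weeks (0.55) and Plod1 at both times (0.58 and 0.53). Mfn2, which encodes the mitochondrial fusion protein mitofusin, fell at 2 weeks (-0.78, edgeR adjusted p = 5.32e-05) and at 8 weeks (-0.44, edgeR adjusted p = 0.00209), and under library totals the values were -0.37, still called, and -0.10, not called. Fv1, a retroviral restriction gene, was called lower at both times (-0.69 and -0.55) but not under library totals. The gene 2510039O18Rik, directly beside Nppb, had 0.05 at 2 weeks and was called higher at 8 weeks (0.28, edgeR adjusted p = 0.0426), and under library totals it was called at both times (0.46 and 0.61). Gm13054 itself had 3.94 at 2 weeks and 3.78 at 8 weeks, with the shared bases named above.

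**Figure D4:**
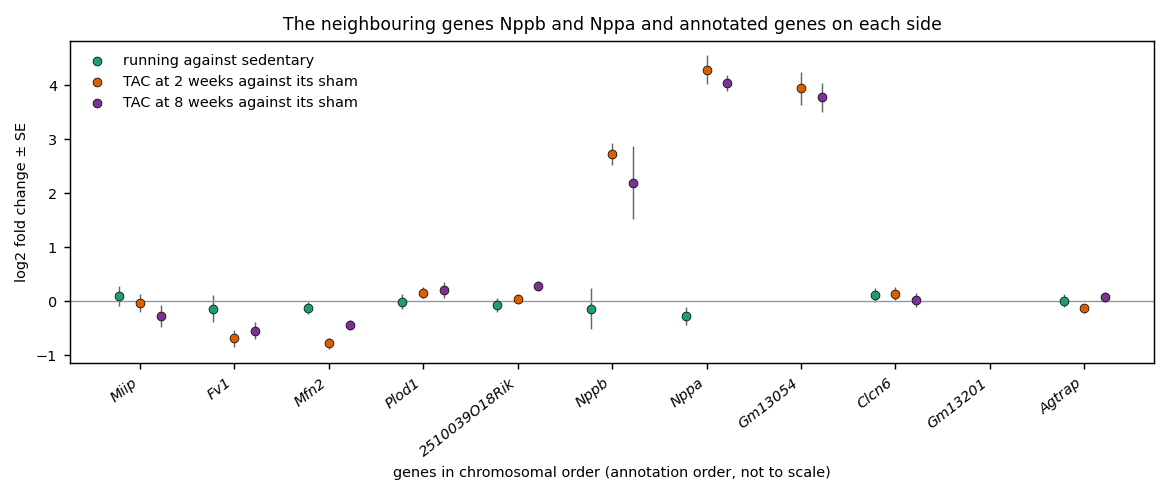
Log2 fold change with its SE (vertical axis) of Nppb, Nppa and annotated genes on each side in chromosome order (horizontal axis), for running against sedentary and for TAC at 2 weeks and at 8 weeks against their shams. After TAC the peptide genes and the antisense Gm13054 lie between 2.19 and 4.29, and the other genes between -0.78 and 0.28.

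Of the 3 soluble cyclase genes, whose enzyme makes cyclic GMP in response to nitric oxide, 2 were called higher at 2 weeks, while Gucy1a2 had a log2 difference of 0.21 (edgeR adjusted p = 0.25). Gucy1a1, the alpha subunit of the nitric oxide receptor, stood at 20.1, 21.1, 21.5 and 21.4 CPM in the TAC hearts, against 14.7, 13.3, 13.4 and 13.6 CPM in their shams. The groups were apart (log2 fold change 0.62, SE 0.079, edgeR adjusted p = 6.93e-05), and Gucy1b1, its beta partner, had 0.51 (edgeR adjusted p = 0.000907). At 8 weeks their log2 differences were -0.10 and -0.22 and were not called. Of the 6 tested genes in this list, which also holds the cyclic GMP kinase Prkg1, 2 were higher and 0 lower at 2 weeks and edgeR called 0 at 8 weeks, 1 having an unadjusted p below 0.05. Over all genes tested, 17.1% were called higher and 16.1% lower at 2 weeks, and 14.9% and 14.7% at 8 weeks. Library totals gave 5 higher at 2 weeks and 1 at 8 weeks. The list's median was 0.20 at 2 weeks and -0.10 at 8 weeks, against medians over all genes tested of -0.0021 and 0.0035.

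Of 8 phosphodiesterase genes of cyclic GMP, 4 were higher and 1 lower at 2 weeks, and 2 were higher and 1 lower at 8 weeks, with list medians of 0.49 and 0.32. The share of all genes called in either direction was 33.2% at 2 weeks and 29.6% at 8 weeks. Library totals gave 6 higher and 0 lower at 2 weeks and 5 higher and 1 lower at 8 weeks. Pde5a, which hydrolyses cyclic GMP, stood at 7.55, 7.22, 6.06 and 6.00 CPM in the TAC hearts at 2 weeks, against 4.87, 3.68, 4.08 and 4.50 CPM in their shams. The groups did not overlap (log2 fold change 0.64, edgeR adjusted p = 0.00154), while at 8 weeks the difference was 0.01. Pde1a, a calmodulin-dependent enzyme, was higher at both times (0.75 and 0.58), and Pde9a, selective for cyclic GMP, was called at 2 weeks (0.78) but not at 8 weeks (0.66). Pde3a, which cyclic GMP inhibits, averaged 52.4 ± 6.71 CPM in the TAC hearts at 8 weeks and 85.7 ± 7.15 CPM in their shams (SD, n = 4 each; log2 fold change -0.71, edgeR adjusted p = 0.000163). At 2 weeks Pde3a was at -0.40 (edgeR adjusted p = 0.00503), which was no longer called under library totals.

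Among 7 genes of peptide breakdown and other processing, Mme fell and Pam and Pcsk5 rose at both times, with list medians of -0.05 and -0.17. Among all genes tested, 33.2% were called at 2 weeks and 29.6% at 8 weeks. Mme, which encodes neprilysin, the endopeptidase that degrades these peptides, stood at 2.19, 4.16, 5.29 and 2.99 CPM in the TAC hearts at 2 weeks, against 8.98, 10.7, 8.89 and 7.73 CPM in their shams. No TAC heart reached a sham (log2 fold change -1.30, SE 0.219, edgeR adjusted p = 0.000846). At 8 weeks Mme averaged 3.14 ± 0.837 CPM in the TAC hearts and 7.59 ± 0.801 CPM in their shams (SD, n = 4 each; -1.26, edgeR adjusted p = 8.78e-05). Pcsk5, a furin-like convertase, was 2.05-fold higher at 2 weeks and 1.79-fold higher at 8 weeks. Pam, the amidating enzyme that sits in atrial secretory granules, averaged 525 ± 45.8 CPM in the TAC hearts at 8 weeks and 243 ± 15.2 CPM in their shams (SD, n = 4 each; log2 fold change 1.113, edgeR adjusted p = 2.13e-06). Under library totals Mme was still called lower, and Pam and Pcsk5 still higher, at both times. Pcsk6, the convertase that activates corin, had log2 differences of -0.05 and -0.12 that were not called.

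Of 19 transcription factor genes tied to the peptide promoters, 2 were higher and 8 lower at 2 weeks, and 0 were higher and 6 lower at 8 weeks, with list medians of -0.11 and -0.24. The background over all genes was 17.1% higher and 16.1% lower at 2 weeks, and 14.9% and 14.7% at 8 weeks. Tbx5, a T-box activator of Nppa, stood at 2.99, 3.67, 3.47 and 3.01 CPM in the TAC hearts at 2 weeks, against 7.23, 6.14, 6.21 and 5.83 CPM in their shams. The groups were apart at both times, with log2 fold changes of -0.95 (edgeR adjusted p = 7.52e-05) and -1.27 (edgeR adjusted p = 0.00206), and Tbx5 was the only factor of the list still called lower under library totals. Under that scaling the list had 6 higher and 1 lower at 2 weeks and 3 higher and 1 lower at 8 weeks. Nkx2-5 was at -0.39 at both times and Mef2d at -0.46, calls that library totals ended, while Nfatc4, a calcineurin target, was higher at 2 weeks (0.84, edgeR adjusted p = 0.00411) and at 0.08 at 8 weeks. Gata4, named for its motif after its values were seen, had log2 differences of -0.11, not called, and -0.34, called, and library totals took the 8-week value to -0.01.

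**Figure D5:**
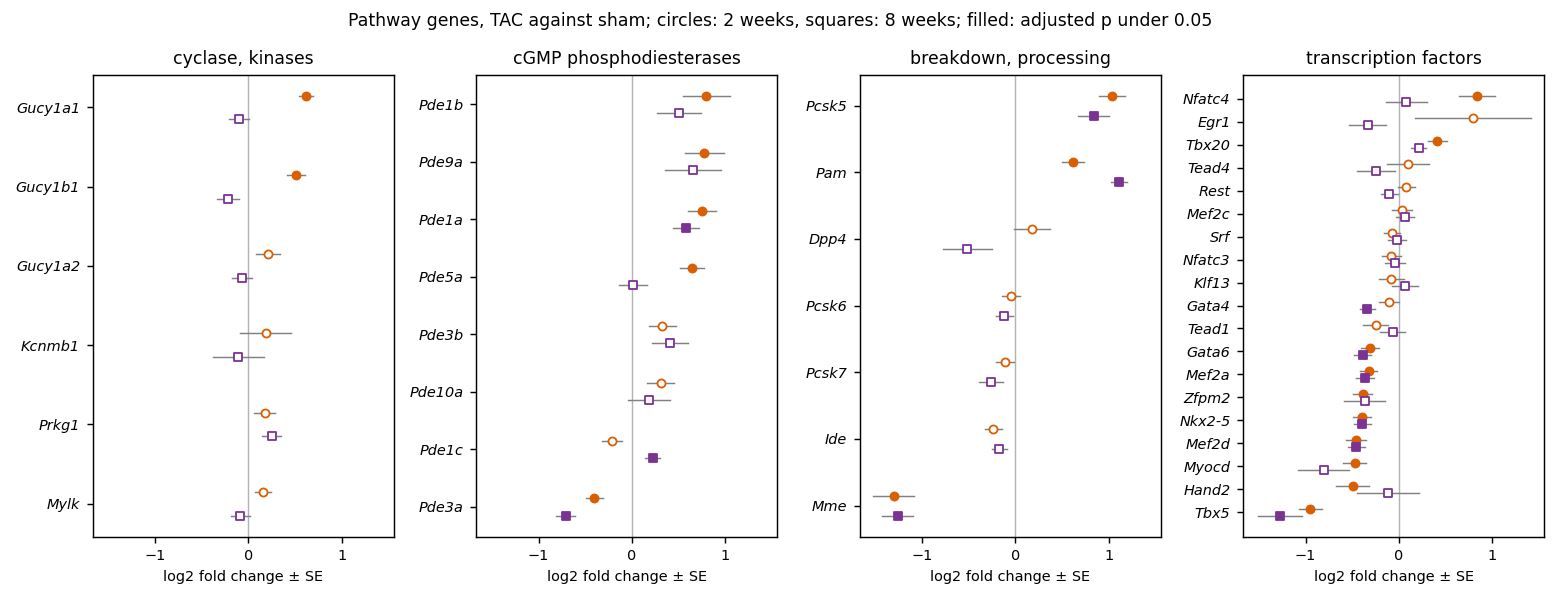
Log2 fold change after TAC (horizontal axes) of the tested genes in 4 lists: soluble cyclase and cyclic GMP kinases, phosphodiesterases, peptide breakdown and other processing, and transcription factors. Circles are TAC at 2 weeks, squares TAC at 8 weeks and filled symbols are called. Mme lies at -1.30 and -1.26, and Tbx5 at -0.95 and -1.27.

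Other fetal heart genes, a list chosen for its known return under load, moved with the peptide genes: 6 of 9 rose at each time and 0 fell, with medians of 1.59 and 1.395. Of all genes tested, 17.1% were called higher at 2 weeks and 14.9% at 8 weeks. Acta1 was at 3.09 at 2 weeks and 4.73 at 8 weeks, Ankrd1 at 1.96 and 2.73, Xirp2, an actin-binding repeat protein of intercalated discs, at 1.81 and 1.98, and Uchl1, a ubiquitin hydrolase, at 1.59 and 1.395. That list shares Myl4 and Myl7 with the atrial list, Acta2 with the smooth muscle list and Acta1 with the skeletal list. Of 4 atrial markers tested, none was called higher beside the rise of Nppa, and the potassium channel gene Kcnj3 was lower at both times (-1.50 and -1.23). The atrial light chain genes Myl7 (-0.18 and -0.05) and Myl4 (0.15 and 0.20) and sarcolipin, Sln (0.40 and 0.01), were not called. Kcnj3 alone stood at 11.3, 13.6, 17.8 and 11.7 CPM in the TAC hearts at 2 weeks, against 35.5, 41.4, 40.9 and 36.3 CPM in their shams. The summed level of the whole atrial list, Kcnj3 included, was 23.7 to 27.9 CPM in the TAC hearts at 2 weeks and 40.0 to 55.8 CPM in their shams. At 8 weeks it was 22.7 to 45.0 CPM with TAC and 37.8 to 56.2 CPM in the shams, and Bmp10 was at or near 0.

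Markers of other cell types also moved with TAC, and their part in the changes of the members was not tested. The shares of all genes called were 17.1% higher and 16.1% lower at 2 weeks, and 14.9% and 14.7% at 8 weeks. Ventricular cardiomyocyte markers were lower for 7 of 8 genes at 2 weeks and 5 of 8 at 8 weeks, with sums of 11738 to 14512 CPM in the TAC hearts at 2 weeks and 22140 to 25488 CPM in their shams. At 8 weeks the sums were 16963 to 18276 CPM with TAC and 23408 to 26374 CPM in the shams, and under library totals 3 of 8 were lower at 2 weeks and 1 lower and 2 higher at 8 weeks. Fibroblast markers were higher for 6 and 5 of 7 genes, with sums of 1595 to 1878 CPM in the TAC hearts against 876 to 1125 CPM in the shams at 2 weeks, and 1213 to 1402 CPM with TAC against 754 to 1015 CPM with sham at 8 weeks. Activated fibroblast genes were higher for 5 of 5 and 4 of 4, with sums of 631 to 1129 CPM with TAC against 44.9 to 76.0 CPM with sham at 2 weeks and 378 to 758 CPM with TAC against 31.6 to 62.1 CPM with sham at 8 weeks. Macrophage markers were higher for 6 of 6 at each time, with sums of 219 to 293 CPM with TAC against 116 to 176 CPM with sham at 2 weeks and 144 to 217 CPM with TAC against 86.7 to 131 CPM with sham at 8 weeks. Endothelial markers were higher for 4 of 7 at 2 weeks (445 to 462 CPM with TAC against 334 to 415 CPM with sham) and for 0 of 7 at 8 weeks, 1 having an unadjusted edgeR p below 0.05 (378 to 404 CPM with TAC against 346 to 453 CPM with sham). Under library totals 6 endothelial markers were higher at 2 weeks and 5 at 8 weeks. Among 4 endocardial genes, which include Npr3 itself, only Plvap was called, at 2 weeks (0.83). Smooth muscle and pericyte genes had 3 higher and 1 lower of 7 at 2 weeks and 1 higher and 1 lower at 8 weeks (6 and 4 higher under library totals), and the single epicardial gene tested was not called. Of 5 erythroid genes none was called at 2 weeks and 2 were higher at 8 weeks. The skeletal muscle list had 2 genes tested, of which Acta1 rose at both times and Ckm fell at 2 weeks, and no thymus or lung gene reached the filter.

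Likeness was measured as Pearson's r of log2 CPM over the 24 libraries among 10440 genes averaging at least 2 CPM. Since the TAC hearts form a cluster of their own for the peptide genes, r within the 8 TAC and within the 16 other libraries stands beside it, as a description only. Both sets still pool groups, so these values of r also carry differences between groups. In the TAC hearts mean Nppa was 600 CPM at 2 weeks and 349 CPM at 8 weeks, and mean Nppb was 234 and 353 CPM. The genes most like Nppa were Igfbp7 (0.991, with 0.968 in TAC and 0.752 in the others), the matrix genes Postn (0.983, with 0.944 and 0.476), Cilp (0.979, with 0.868 and 0.508) and Col8a1 (0.978, with 0.959 and 0.444), and Svep1 (0.977, with 0.881 and 0.295). For Nppb the nearest were Tax1bp3 (0.953, with 0.699 and 0.783), Etv5 (0.949, with 0.737 and 0.757), Tspan9 (0.937), Uck2 (0.936, with 0.866 and 0.823) and Mfge8 (0.935, with 0.907 and 0.696). Nppa and Nppb had an r of 0.854 over all libraries, which placed Nppb 348th in likeness to Nppa, but within the TAC hearts r was -0.52 and within the others -0.10. For Corin the nearest were Arhgap20 (0.927, with 0.731 and 0.835), Lpl, the lipoprotein lipase gene (0.922, with 0.872 and 0.616), Cpeb3 (0.922), Epb41 (0.917) and Ogdhl (0.910). Corin and Nppa had an r of -0.890 over all libraries, -0.493 within TAC and -0.262 within the others. Npr3 was most like Map1lc3b, an autophagosome protein gene (0.836, with 0.874 and 0.835), followed by 2410015M20Rik (0.808), Acot13 (0.798), Ndufb4, a complex I subunit gene (0.798, with 0.969 and 0.757), and Bola3 (0.796).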

How the data were processed

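Values were estimated counts per gene that the authors deposited as whole numbers, made with Salmon on mm9 after FastQC, per the submitters' processing notes. The sources used here do not give versions, annotation or strand setting. RNA came from flash-frozen hearts, with ribosomal RNA removed, per the labels' protocols. Of 43432 identifiers, 42462 took a symbol from GENCODE vM21, and 1 row that named no gene held 0 counts. That annotation is on another build than the counts. Its coordinates gave the exon lengths, the shared exon bases and the order of neighbouring genes, and they are not printed. Promoter windows are RefSeq's on GRCm38.p6.

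Each comparison was fitted alone in edgeR 4.0.16 (R 4.3.3, limma 3.58.1) with filterByExpr, TMM factors and a robust quasi-likelihood fit. Differences of effects were fitted over the libraries of both comparisons. CPM used the TMM factors over 24 libraries, and correlations used log2 CPM with a prior count of 2. Alternatives were DESeq2 1.42.0 and its size factors, library totals, no mitochondrial genes, no filter, a fit over 24 libraries, a replicate block and leaving out each library. The scripts were tested on simulated data. Totals of 16802939 to 39512101 counts limit precision for low genes such as Nppc, and floors cover counting error only. No 2 libraries of the same group were alike within sampling noise, and pairs across groups were not examined.

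The members and lists were chosen with earlier results of these data known. Beyond the members, the text names up to 4 genes of a list with the smallest p in a comparison, the 5 genes most like a member and genes beside Nppa and Nppb, of which 1 is not reported here.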

Additional observations from a re-analysis of the deposited data

Results flagged for a closer look

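In 5 of the 42 sets of 4 libraries examined, 1 library stood apart from the other 3, given as its gap to the nearest divided by the whole range of the set. Chance does this in about 1 set in 20. Nppb in sedentary replicate 1 was low at 27.1 CPM, with a gap of 0.838 of the range. Npr1 in running replicate 4 was high at 13.4 CPM (gap 0.874). Npr3 was high in sedentary replicate 2 at 14.5 CPM (gap 0.84) and in 2-week sham replicate 3 at 26.6 CPM (gap 0.865). Corin in 8-week TAC replicate 3 was low at 68.5 CPM (gap 0.891). The 179 CPM of Nppb in 8-week sham replicate 1 did not pass this rule.

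The effects of TAC and of running differed in a test of the difference itself for 3 members. On the log2 scale, the 2-week TAC effect minus the running effect was 4.56 for Nppa, 2.86 for Nppb and -1.02 for Corin. The 8-week TAC effect minus the running effect was 4.33 for Nppa and -0.83 for Corin. Both sets share the running and sedentary libraries.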

How the results depend on the processing

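DESeq2 size factors and leaving out mitochondrial genes changed no call or direction of a member, and Nppa and Corin kept their TAC against sham calls under every setting. Library totals called 7609 genes for TAC at 2 weeks, 6643 at 8 weeks, 30 for the difference of the TAC effects, 4720 for TAC at 2 weeks minus running (4506 higher, 214 lower) and 3198 for TAC at 8 weeks minus running (3028 higher, 170 lower), in place of 4717, 4032, 196, 2807 and 1581. At 8 weeks 3 members, in place of 5, then had no overlap. Library totals turned the log2 change of Npr2 to -0.056 for running, 0.29 for TAC at 2 weeks, 0.051 at 8 weeks, 0.34 for TAC at 2 weeks minus running and 0.11 at 8 weeks minus running. They turned Furin to 0.036 at 2 weeks and, minus running, to 0.31 and 0.088, and Npr1 to 0.18 at 8 weeks and 0.30 minus running. They also called Npr1 higher for TAC at 2 weeks (0.65) and for TAC at 2 weeks minus running (0.77). The cause was not tested.

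For running, DESeq2 called 9 genes, no filter 2 and the replicate block 47, and leaving out single libraries gave 0 to 3. For the difference of the TAC effects DESeq2 called 621, the replicate block 461 and leaving out single libraries 22 to 654, so that count is unstable. Leaving out single libraries gave 3923 to 4575 calls for TAC at 2 weeks, 2984 to 4204 at 8 weeks, 2169 to 2919 for TAC at 2 weeks minus running and 1077 to 1780 at 8 weeks minus running. It turned small differences of running members: Nppb ran from -0.48 to 0.082 (positive without running replicate 3), Npr1 from -0.15 to 0.035 (positive without running replicate 1, 2 or 3 or sedentary replicate 4) and Corin from -0.0038 (without running replicate 1) to 0.17. Nppb in the difference of the TAC effects ran from -0.80 to 0.31, positive only without 8-week sham replicate 1. Npr1 at 8 weeks minus running ran from -0.24 to 0.025, positive without that sham or running replicate 4. Npr2 at 8 weeks minus running was called without 8-week TAC replicate 2 (edgeR adjusted p = 0.0241).

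Same-numbered libraries did not deviate together in every pair (r of 0.06 to 0.50 for running, 0.0025 to 0.29 at 2 weeks, -0.31 to 0.12 at 8 weeks). Differently numbered pairs were not set beside them, so whether the numbers pair the hearts was not settled. The main fits used no replicate block. With the replicate block, Npr3 at 2 weeks was called (-0.41, edgeR adjusted p = 0.00761) and Npr2 at 8 weeks was not (edgeR adjusted p = 0.0533), and no other call of a member changed. Depth limits Nppc.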
